A study of Mus musculus with 6 samples.

Results

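The genes described here encode the endosomal nucleic acid sensors of plasmacytoid dendritic cells (pDCs) and the proteins that fold, transport and serve them. They comprise the Toll-like receptors *Tlr3*, *Tlr7*, *Tlr8*, *Tlr9* and *Tlr13*, the chaperones *Unc93b1* and *Cnpy3*, the transporter *Slc15a4*, the adaptor *Myd88* and the exonuclease *Pld4*. They were chosen by name, and for each gene the probe set with the highest mean over 6 arrays was taken among probe sets paired with exactly 1 gene symbol. All 10 were found, each with 1 such probe set, among 19937 genes named in this way. RNA came from 3 *Gfi1f/f; Gfi1bf/f; ERCre* mice on the C57BL/6 background. Total bone marrow of each mouse was cultured in 25 ng/ml Flt-3L, and one part of it was left untreated (WT) while the other received 1 µM tamoxifen (4OHT) to activate ERCre and delete the floxed alleles (KO). All cells therefore carried the floxed alleles and ERCre, and the drug, Cre activity and gene loss cannot be told apart in the KO arm. B220+ CD11c+ cells were sorted, and 200 ng of total RNA per culture was run on an Affymetrix Mouse Gene 1.0 ST array, which gave 3 WT and 3 KO arrays. No source used here gives the age of the mice, ERCre was knocked into a ubiquitously active locus, and the study describes deletion in such pDC cultures as inefficient by genotyping.

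Endosomal Toll-like receptors detect nucleic acids that reach the endosome. TLR7 and TLR8 respond to single-stranded RNA and its breakdown products, TLR9 to DNA with unmethylated CpG motifs, TLR3 to double-stranded RNA and TLR13, which mice have and humans lack, to bacterial ribosomal RNA. UNC93B1 escorts these receptors from the endoplasmic reticulum, CNPY3 helps gp96 to fold most of them, and all but TLR3 signal through MYD88. Mouse pDCs are known for TLR7 and TLR9, which drive their type I interferon, whereas TLR8 and TLR13 are known from monocytes, macrophages and conventional dendritic cells.

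Values are probe set intensities on a linear scale, and a difference is that of log2 intensities, KO minus WT. Array medians lay between 69.0 and 72.9. Olfactory and vomeronasal receptor genes, 1208 probe sets that blood cells should not use, gave the background, with a 95th percentile of 56.0 to 71.2 per array. *Gfi1*, at 43.3 to 56.1 in WT and 60.5 to 67.1 in KO, was within the background on every array, so its change was not measured. *Gfi1b*, at 155 to 179 in WT and 194 to 279 in KO, was not lower in KO in any mouse. Neither probe set separates the deleted exons. All 17 measured pDC markers were above background on all 6 arrays. So were 16 of 19 monocyte and macrophage, 11 of 16 conventional dendritic cell and 7 of 13 B lineage markers. The same held for 7 of 17 stromal, 4 of 18 neutrophil and 2 of 10 T and NK markers, and for 10076 of all 19937 genes. The summed intensity of the pDC markers was 22900 to 55960 in WT and 33670 to 52550 in KO. The 19 monocyte and macrophage markers summed to 12660, 55200 and 56130 in WT of mice 1, 2 and 3 and to 10410, 47010 and 50460 in KO, so that the arrays of mice 2 and 3 held several times the signal of mouse 1. Genes of neutrophils (1841 to 14900 in WT, 1034 to 5956 in KO) and stromal cells (1255 to 17450 in WT, 1088 to 6706 in KO) also had their lowest sums in mouse 1. Sums over conventional dendritic cell genes (9324 to 10060 in WT, 9069 to 9307 in KO) and T and NK cell genes (437 to 505 and 498 to 561) varied less. Of the 10 T and NK cell genes 6 were below background on all 6 arrays, so that their sum says little about these cells. Of the 16 conventional dendritic cell genes 9 were lower and 7 higher in mouse 1, and 8 passed a limma F test for the mouse. *Itgam* read 224, 1157 and 1650 in WT of mice 1, 2 and 3, and *Cd209a* read 1579, 547 and 369. Both were named after their values were seen. *Flt3* and *Itgax* are on this list and on the pDC marker list. B lineage sums (5650 to 7133 and 5064 to 6069) held opposite moves, with 6 of 13 genes past a limma F test for the mouse, *Cd79a* at 89.3, 958 and 941 in WT of mice 1, 2 and 3, and *Dntt* at 2842, 1193 and 1069 (both named after their values were seen). In sorted bulk RNA, fewer cells of a type and less RNA per cell cannot be told apart.

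None of the 10 genes differed between KO and WT pDCs at an adjusted p under 0.05 in limma, and neither did any of the 21640 probe sets tested (0%). At an unadjusted p under 0.05 none of the 10 was higher or lower, beside 5.14% of all probe sets higher (1113) and 1.9% lower (412). WT and KO values overlapped for all 10, while 14.8% of all probe sets had no overlap. Within mice, *Tlr9* was higher in KO in all 3 (1 of 10 genes, beside 21.3% of all probe sets), and *Tlr8* and *Tlr13* were lower in KO in all 3 (2 of 10, beside 17.4%), although their mouse 1 values were within the background, so that only mice 2 and 3 measure them. The other 7 genes changed sign between mice. With the mouse as a block, which takes out the level of each mouse, no probe set passed the adjusted threshold either (0%). That fit put *Tlr9* among the 7.46% of probe sets higher at an unadjusted p under 0.05 and *Tlr8* and *Tlr13* among the 5.99% lower.

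**Figure D1:**
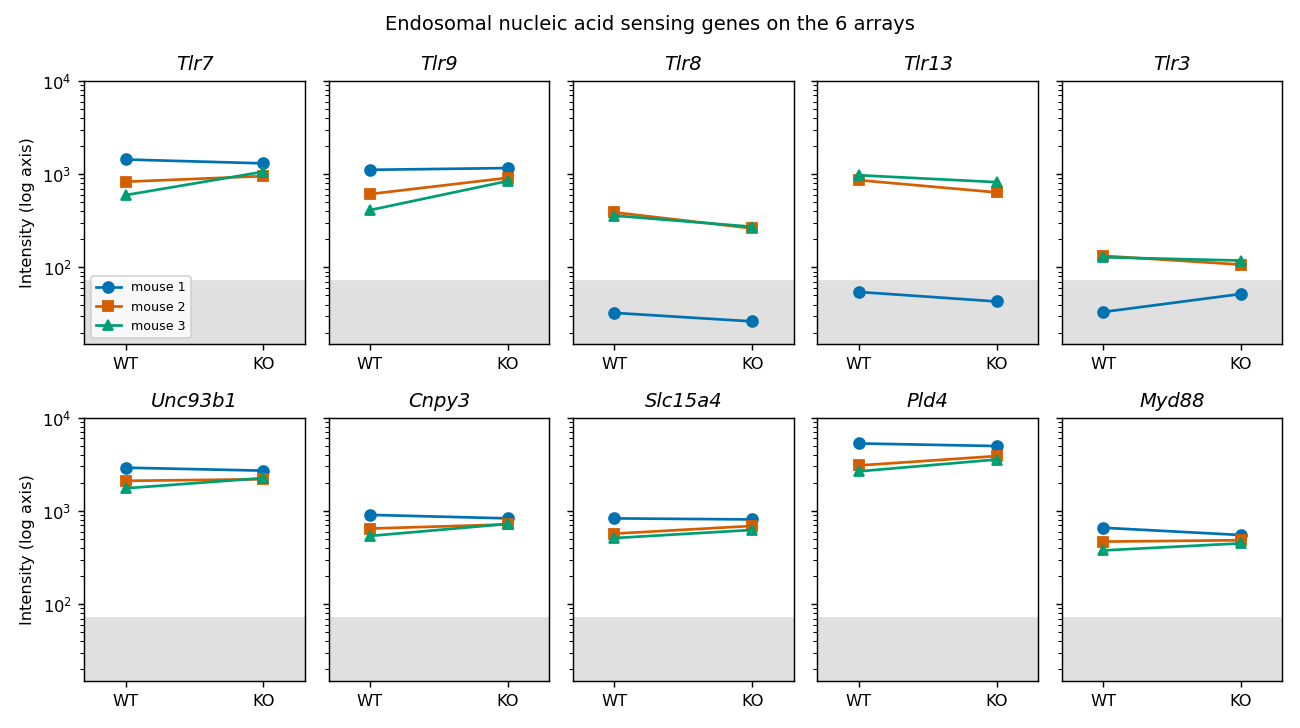
Intensity (log axis) of each of the 10 genes on the WT and KO array of each mouse, lines joining the arrays of 1 mouse. The grey band reaches up to 71.2, the highest 95th percentile of the background genes on any array. *Tlr8*, *Tlr13* and *Tlr3* lie in the band in mouse 1, and the other 7 genes are highest in mouse 1. Heights of different genes are not comparable.

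*Tlr9*, the CpG DNA sensor, had intensities of 1115, 613 and 412 in WT of mice 1, 2 and 3 and of 1164, 915 and 846 in KO. The means were 713 ± 362 in WT and 975 ± 167 in KO (SD, n = 3 mice each). The WT values of mice 2 and 3 were below every KO value, while that of mouse 1 lay within the KO range. KO exceeded WT by 0.062, 0.58 and 1.04 on the log2 scale in mice 1, 2 and 3. The mean difference was 0.56 (standard error 0.36, 95% interval -0.30 to 1.42, adjusted p = 0.75 from limma), a ratio of 1.47. Taking the mouse as a block cut the standard error to 0.18, with an unadjusted p under 0.05 and an adjusted p = 0.32 from limma.

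*Tlr7*, the sensor of single-stranded RNA, ran similarly, at 1439, 831 and 597 in WT and 1308, 955 and 1063 in KO. Here KO was lower than WT by 0.14 in mouse 1 and higher by 0.20 and 0.83 in mice 2 and 3. The mean difference of 0.30 (standard error 0.32) had a 95% interval of -0.48 to 1.08 and an adjusted p of 0.84 in limma. For both receptors mouse 1 varied least with treatment, and mouse 3 had the lowest WT value and the largest difference. Mouse 1 exceeded mouse 3 by 2.41-fold for *Tlr7* and 2.70-fold for *Tlr9* in WT, and by 1.23-fold and 1.38-fold in KO.

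The pDC markers ran in the same order. Their summed intensity in mouse 1 was 2.44-fold that of mouse 3 in WT and 1.56-fold in KO. Their median differences were -0.12, 0.40 and 0.62 in mice 1, 2 and 3, and 15 of 17 had a higher mean in KO, with a median of 0.29 beside 0.029 over all genes. Only *Ly6d*, a surface marker of lymphoid progenitors and pDCs, had a larger mean difference among the 17 (0.76, adjusted p = 0.69 from limma) than *Tlr9*, and it was the only one with an unadjusted p under 0.05 (5 of 17, all higher, with the mouse as a block). *Siglech*, a pDC surface lectin, had a mean difference of 0.27 and *Tcf4*, the pDC lineage factor, of 0.28. The part of pDC content in the *Tlr7* and *Tlr9* differences was not tested.

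*Tlr8* and *Tlr13* had a pattern of another kind. *Tlr8* read 32.5, 389 and 360 in WT of mice 1, 2 and 3, and 26.4, 262 and 273 in KO. *Tlr13* read 54.5, 864 and 976 in WT and 43.1, 638 and 822 in KO. In mouse 1 both genes were below the 95th percentile of the background genes on both arrays, and in mice 2 and 3 both were far above it. The KO minus WT differences of *Tlr8* were -0.30, -0.57 and -0.40, and those of *Tlr13* were -0.34, -0.44 and -0.25. Those of mouse 1 are differences between values within the background and give no fold.

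The mean difference was -0.42 for *Tlr8* (standard error 1.29, adjusted p = 0.95 from limma) and -0.34 for *Tlr13* (standard error 1.53, adjusted p = 0.97 from limma). The large errors come from the spread between mice, since with the mouse as a block they were 0.10 for *Tlr8* and 0.10 for *Tlr13*. The block gave both genes an unadjusted p under 0.05, with adjusted p = 0.30 for *Tlr8* and 0.31 for *Tlr13* from limma. The block fit includes mouse 1, where both genes were within the background. Without mouse 1, and without the block, the difference was -0.48 for *Tlr8* (unadjusted p = 0.0048 from limma). For *Tlr13* it was -0.34 (unadjusted p = 0.069 from limma), so that only *Tlr8* stayed under 0.05. With any 1 mouse left out both stayed negative, at -0.48 to -0.35 for *Tlr8* and -0.39 to -0.29 for *Tlr13*. A fit without a single array leaves the mice unbalanced between WT and KO. Leaving out a single WT array of mouse 2 (0.19 and 0.29), a single WT array of mouse 3 (0.14 and 0.38) or the KO array of mouse 1 (0.69 and 1.02) turned both signs. The monocyte and macrophage markers ran beside them. All 19 had a lower mean in KO, with medians of -0.30, -0.52 and -0.15 in mice 1, 2 and 3, and 6 of the 19 had a lower mean difference than *Tlr8* and 8 a lower one than *Tlr13*. At an unadjusted p under 0.05 the only one lower was *Fcrls*, and 7 were lower with the mouse as a block. *C1qa*, a complement gene of macrophages, read 178, 2515 and 2543 in WT and 158, 1749 and 1981 in KO, while *Fcrls*, a macrophage Fc receptor-like gene, had a difference of -1.98 (adjusted p = 0.69 from limma). Stromal markers had a median difference of -0.88 and neutrophil markers one of -0.76. Their means were lower in KO for 15 of 17 and 14 of 18, and with the mouse as a block 13 and 11 of these were lower at an unadjusted p under 0.05. The part of these cells in the *Tlr8* and *Tlr13* differences was not tested.

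*Tlr3*, the sensor of double-stranded RNA, read 33.3, 133 and 129 in WT and 52.0, 107 and 119 in KO. It was within the background in mouse 1 and above it in mice 2 and 3. Its differences of 0.64, -0.31 and -0.12 had a mean of 0.072 (standard error 0.61, adjusted p = 0.98 from limma). The positive mean rests on mouse 1, since without that mouse it was -0.21, and with array weights it was -0.30.

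GFI1 and GFI1B are zinc finger repressors that bind DNA at sites with the core AATC. The promoters of *Tlr9*, *Tlr8* and *Tlr13*, the genes with an unadjusted p under 0.05 with the mouse as a block, are shown for that reason. Each is the 250 bases before the RefSeq gene start in GRCm38.p6, written along the gene's strand. Capitals mark matches on either strand to the letters AATC and to GAGGAA, the core bound by PU.1 and SpiB, which are factors of myeloid cells and pDCs. No 2 matches overlap.
Tlr9, chr9:106222348-106222597, plus strand: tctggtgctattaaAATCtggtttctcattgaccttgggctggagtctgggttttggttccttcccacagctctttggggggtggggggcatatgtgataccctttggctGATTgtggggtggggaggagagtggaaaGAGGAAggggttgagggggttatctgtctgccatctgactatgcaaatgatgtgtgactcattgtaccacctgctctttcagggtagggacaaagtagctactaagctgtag
Tlr8, chrX:167264330-167264579, minus strand: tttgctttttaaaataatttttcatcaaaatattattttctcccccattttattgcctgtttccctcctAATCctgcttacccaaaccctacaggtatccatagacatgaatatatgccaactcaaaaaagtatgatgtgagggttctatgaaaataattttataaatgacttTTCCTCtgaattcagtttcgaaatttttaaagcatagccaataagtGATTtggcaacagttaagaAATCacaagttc
Tlr13, chrX:106143025-106143274, plus strand: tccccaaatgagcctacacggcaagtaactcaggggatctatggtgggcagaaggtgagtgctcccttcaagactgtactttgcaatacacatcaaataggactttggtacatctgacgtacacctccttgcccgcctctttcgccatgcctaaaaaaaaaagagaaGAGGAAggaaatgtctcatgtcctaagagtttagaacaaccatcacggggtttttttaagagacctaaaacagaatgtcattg
AATC matched 2 times in the *Tlr9* promoter, 3 times in that of *Tlr8* and 0 times in that of *Tlr13*, and GAGGAA matched once in each. Of 32851 mouse promoters of this length, 69.0% hold AATC and 23.3% hold GAGGAA on either strand, so that such matches are common. A RefSeq promoter was at hand for 8 of the 10 genes, *Tlr7* and *Unc93b1* being the others.

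The chaperones, the transporter, the exonuclease and the adaptor followed *Tlr7* and *Tlr9* at smaller amplitude. *Unc93b1*, the escort of endosomal receptors, read 2910, 2104 and 1749 in WT and 2706, 2189 and 2252 in KO. *Cnpy3*, the folding partner of gp96, read 907, 647 and 539 in WT and 832, 716 and 726 in KO. Both had WT values that spread wider than the KO values, which lay within the WT range. Their mean differences were 0.11 (standard error 0.20) and 0.15 (standard error 0.20), with adjusted p = 0.92 and 0.87 from limma.

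*Slc15a4*, an endolysosomal histidine and oligopeptide transporter needed for TLR7 and TLR9 responses in pDCs, read 832, 571 and 512 in WT and 810, 690 and 625 in KO. *Pld4*, an endolysosomal exonuclease that degrades single-stranded nucleic acids, read 5298, 3077 and 2660 in WT and 4969, 3879 and 3562 in KO. For these genes too, the KO values lay within the WT range. The mean difference of *Slc15a4* was 0.18 (standard error 0.21, adjusted p = 0.86 from limma), and that of *Pld4* was 0.22 (standard error 0.28, adjusted p = 0.87 from limma).

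*Myd88*, the adaptor of all these receptors but *Tlr3*, read 660, 469 and 377 in WT and 551, 485 and 449 in KO. KO was lower by 0.26 in mouse 1 and higher by 0.050 and 0.25 in mice 2 and 3, and the mean difference of 0.014 (standard error 0.21, adjusted p = 0.99 from limma) turned to -0.041 when arrays were centred on their medians. Leaving out 1 array also turned the sign of *Unc93b1* and *Cnpy3*, to -0.061 and -0.018 without the WT array of mouse 3.

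KO was below WT in mouse 1 and above it in mice 2 and 3 in 6 of the 10 genes, these 5 and *Tlr7*, and in 16.2% of all probe sets. The difference was larger in mouse 3 than in mouse 2, and in mouse 2 than in mouse 1, in 7 of the 10, the same 6 and *Tlr9*, in 13 of 17 pDC markers and in 21.2% of all probe sets. In the WT arrays these 7 of the 10 were highest in mouse 1 and lowest in mouse 3, an order that 29.5% of all probe sets had. The mouse 1 to mouse 3 ratio of the 5 genes was 1.63 (*Slc15a4*) to 1.99 (*Pld4*) in WT and 1.15 (*Cnpy3*) to 1.39 (*Pld4*) in KO. In mice 2 and 3 KO was higher in 7 of the 10 genes (37.5% of all probe sets) and lower in the other 3 (28.9%). Without mouse 1 the fit gave 3 of the 10 higher at an unadjusted p under 0.05 (9.77% of all probe sets) and 1 lower, *Tlr8* (7.79%). The 3 were *Tlr9* at 0.81, *Tlr7* at 0.52 and *Pld4* at 0.38 on the log2 scale (adjusted p = 0.16, 0.23 and 0.23 from limma). Without the WT array of mouse 1 alone, 5 of the 10 were higher at an unadjusted p under 0.05 (8.04% of all probe sets), and the smallest adjusted p of those was 0.31.

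**Figure D2:**
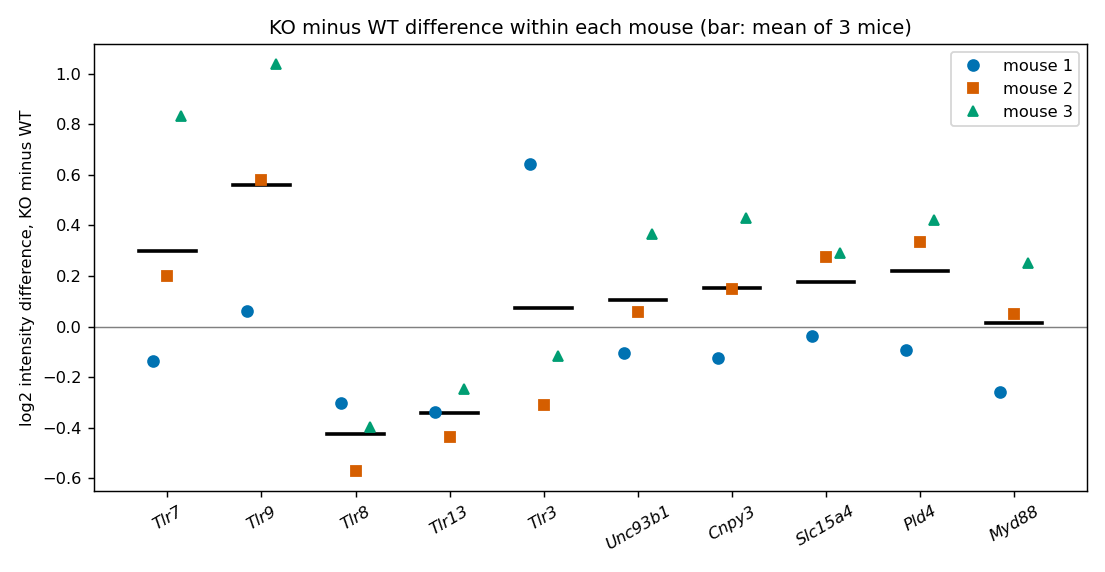
Difference of log2 intensity, KO minus WT, for each gene and mouse (symbols), with the mean of 3 mice as a bar. *Tlr9* is above 0 in all 3 mice, *Tlr8* and *Tlr13* are below 0 in all 3, and in *Tlr7*, *Unc93b1*, *Cnpy3*, *Slc15a4*, *Pld4* and *Myd88* mouse 1 is below 0 and mice 2 and 3 above. The mouse 1 points of *Tlr8*, *Tlr13* and *Tlr3* are differences within the background.

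Levels of 3 receptors differed among the mice. A moderated F test in limma for the mouse, with treatment in the fit, called 8.91% of all probe sets at an adjusted p under 0.05 (1928) and 3 of the 10 genes. These were *Tlr13* (adjusted p = 3.0e-05), *Tlr8* (5.4e-05) and *Tlr3* (0.013), and none of the 3 passed when values were floored at the 20th percentile (smallest adjusted p = 0.057). That floor left the KO minus WT differences of these 3 genes unchanged. Against the background level of mouse 1, the mean of mice 2 and 3 was at least 13.5-fold higher for *Tlr13*, at least 5.23-fold for *Tlr8* and at least 2.00-fold for *Tlr3*. The bound takes the 95th percentile of the background genes in mouse 1 (60.6) as its level, against means of 816, 317 and 121 in mice 2 and 3.

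The other 7 genes ran the opposite way, each higher on both arrays of mouse 1 than on all arrays of mice 2 and 3, as were 21.6% of all probe sets. Mouse 1 exceeded the mean of mice 2 and 3 by 1.71-fold for *Tlr9*, 1.63-fold for *Tlr7*, 1.57-fold for *Pld4*, 1.38-fold for *Slc15a4*, 1.36-fold for *Unc93b1*, 1.36-fold for *Myd88* and 1.33-fold for *Cnpy3*. None of these passed the F test over all probe sets, with adjusted p from 0.064 (*Pld4*) to 0.23 (*Cnpy3*) in limma. A fit with a trended and robust prior called *Pld4* (0.020) and *Slc15a4* (0.048) as well. That fit called 2470 of the 21640 probe sets, against 1928 in the main fit.

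Marker genes separated the mice along the same lines. All 17 pDC markers were higher in mouse 1, with a median difference of 0.89, and 18 of 19 monocyte and macrophage markers were lower, with a median of -2.66, the exception being *Ccr2*, a chemokine receptor. Each mouse stands for 1 marrow and 1 pair of cultures, so that animal, culture and sort cannot be told apart. *Xist*, which marks cells with an inactive X chromosome, read 1890 to 2450 in mice 1 and 2 and 23.9 and 24.6 in mouse 3, so mouse 3 differed from the others in sex as well. *Tlr7*, *Tlr8* and *Tlr13* are X-linked, and between mice 3 and 2 they differed by -0.16, -0.029 and 0.27 on the log2 scale. Sex and mouse cannot be told apart here.

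**Figure D3:**
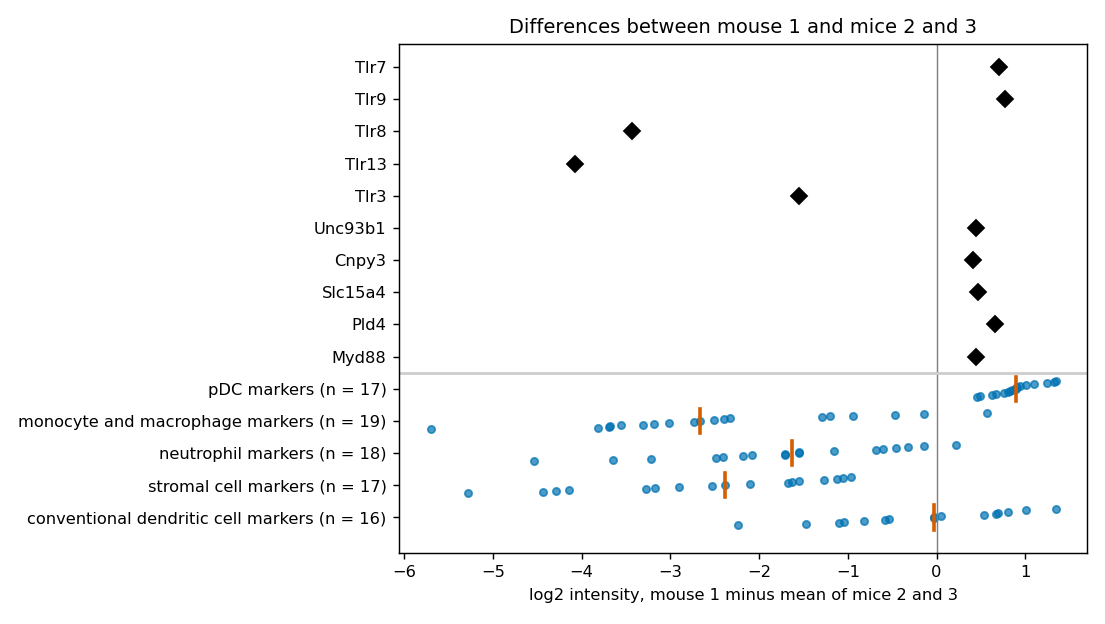
Difference of log2 intensity between mouse 1 and the mean of mice 2 and 3, each mouse being the mean of its WT and KO arrays, for the 10 genes (diamonds) and for marker genes of pDCs and other cells (points, with the median in orange). *Tlr8*, *Tlr13* and *Tlr3* lie on the side of the monocyte and macrophage markers, and the other 7 genes on that of the pDC markers. The values of *Tlr8*, *Tlr13* and *Tlr3* are as measured, with mouse 1 in the background.

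The other Toll-like receptors showed both patterns. *Tlr12*, an endosomal receptor for profilin, ran as *Tlr7* and *Tlr9* did, at 262, 149 and 102 in WT and 256, 187 and 178 in KO. The cell surface receptors *Tlr1*, *Tlr2*, *Tlr4* and *Tlr6* were lower in mouse 1 and all 4 passed the F test for the mouse in limma, with *Tlr1* at 82.4, 521 and 440 in WT and 54.3, 295 and 392 in KO (adjusted p = 0.00056). *Tlr1* was also lower in KO in all 3 mice, with a mean difference of -0.53 (adjusted p = 0.91 from limma). Its KO value in mouse 1 was within the background (95th percentile 64.0 on that array).

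Of the further genes of the pathway, none passed the adjusted threshold between KO and WT in limma. Over all 19937 genes, 11181 had a higher mean in KO and 8756 a lower one, and the list counts of higher and lower means below stand beside these. With the mouse as a block, where 7.46% of all probe sets were higher and 5.99% lower at an unadjusted p under 0.05, that level was reached by 4 of 21 folding and transport genes and 1 of 21 adaptor and kinase genes, all lower. It was reached by 3 of 22 output genes, all higher, by 4 of 18 negative regulators higher and 2 lower, by 1 of 5 other receptors lower (*Tlr1*), and by no gene of the nuclease, transcription factor and cytosolic lists. Among 21 of folding, transport and receptor processing, 14 had a lower mean in KO (median -0.078), and 9 were lower in all 3 mice (17.4% of all probe sets). *Ap3b1*, a subunit of the AP-3 complex that sorts TLR9, had a difference of -0.19, and the protease gene *Ctsl*, whose product cleaves the receptors, of -0.20. *Ctsk*, another such protease, followed *Tlr8*, at 25.6, 290 and 626 in WT and 24.3, 209 and 351 in KO, with both mouse 1 values within the background. Among 9 nuclease and ligand handling genes 6 had a lower mean (median -0.12). *Pld3*, the paralog of *Pld4*, was lower in mouse 1 instead of higher, at 340, 2169 and 2303 in WT and 361, 2062 and 2313 in KO.

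Downstream of *Myd88*, 17 of 21 adaptor and kinase genes had a lower mean in KO (median -0.10), beside 8756 of all 19937 genes. Among them were *Tab2* at -0.21, *Ikbkg* at -0.21 and *Tbk1* at -0.23. *Slc15a3*, the paralog of *Slc15a4*, read 684, 1538 and 2147 in WT and 717, 1431 and 1642 in KO, again the reverse order of mice from *Slc15a4*. Among 13 transcription factors 8 had a higher mean (median 0.046). *Irf7*, the interferon regulator that pDC receptors activate, read 1644, 1304 and 1876 in WT and 2414, 1452 and 1927 in KO, higher in all 3 mice, with a mean difference of 0.25 (adjusted p = 0.81 from limma).

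Interferon and cytokine genes, the outputs of these sensors, were often dim in these cultures, for which no receptor ligand is described. Of 22 measured, 9 were below background on all 6 arrays, *Ifnb1* among them at 10.4 to 16.5. A higher mean in KO was found in 18 of the 22 (median 0.19), beside 11181 of all 19937 genes (median 0.029). The background genes also read higher in KO, and their part in the difference of the dim genes was not tested. *Ifnl2*, a type III interferon gene, was the only one with an unadjusted p under 0.05 without the block, at 129, 97.0 and 142 in WT and 140, 187 and 182 in KO (difference 0.48, adjusted p = 0.70 from limma). Many interferon genes are near-identical, so their probe sets may share signal. Of 18 negative regulators 11 had a higher mean (median 0.11), and *Usp18*, which damps interferon receptor signalling, was the only one with an unadjusted p under 0.05 without the block, at 323, 328 and 328 in WT and 438, 406 and 390 in KO (difference 0.33, adjusted p = 0.69 from limma). The negative regulators share *Siglech*, *Bst2* and *Pacsin1* with the pDC markers and *Mertk* with the macrophage markers. Of 18 cytosolic sensing genes 12 had a lower mean (median -0.015), beside 8756 of all 19937 genes.

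**Figure D4:**
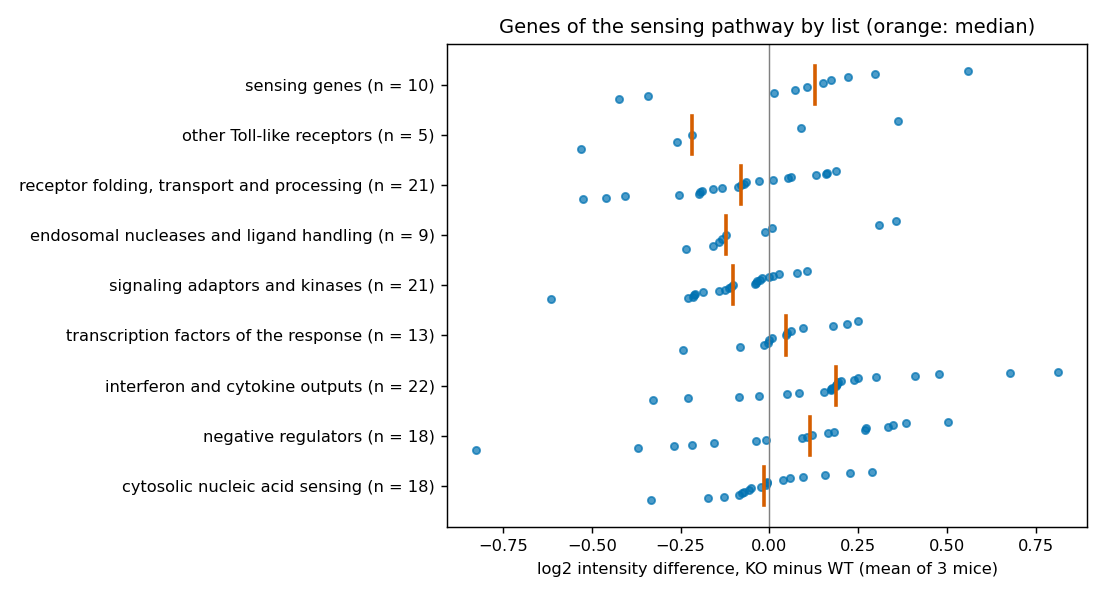
Difference of log2 intensity, KO minus WT, for single genes (points) in the 10 sensing genes and in 8 lists of other pathway genes, with the list medians in orange. The medians lie between -0.22 (other Toll-like receptors) and 0.19 (interferon and cytokine outputs), and the 10 sensing genes have a median of 0.13.

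The genes whose log2 intensities ran most like a sensor were sought among 11564 genes with a mean above the background. *Tlr9* was nearest to *Klrd1*, which encodes CD94 (Pearson's r = 0.996), *Plac8* (0.994) and *Cd300c* (0.993), the last of which is on the pDC marker list. *Klrd1* read 3299, 1431 and 799 in WT and 3045, 2378 and 2149 in KO. *Tlr7* was nearest to *Zcchc3* (0.999), which encodes a cofactor of nucleic acid sensing, *Frs3* (0.996) and *Zdhhc4* (0.995). *Unc93b1* was nearest to *Mpeg1*, which encodes perforin-2 (0.999), *Ptp4a3* (0.998) and *Lrrk1* (0.997). These r describe 6 arrays of 3 mice that share their marrow in pairs and their differences in pDC and macrophage marker level, and carry no test.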

How the data were processed

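Sorted pDCs of 3 mice, 1 WT and 1 KO culture each, were hybridised to 6 Affymetrix Mouse Gene 1.0 ST arrays after NuGen labelling. The deposited values are linear intensity values of 34760 probe sets, which the authors had normalized between arrays, by a method not given in the sources used here. They were log2-transformed without further normalization. The platform table pairs 21640 probe sets with 1 symbol, 1321 with several and 11799 with none, and only the first were tested. In R 4.3.3, limma 3.58.1 (lmFit, eBayes) compared WT with KO by two-sided tests, and p-values were adjusted after Benjamini and Hochberg over all probe sets tested. The labels pair the cultures by mouse, so the mouse was a block in an alternative fit. After group means were removed, each WT array correlated best with its own mouse's KO array (r = 0.808, 0.512 and 0.671). The highest r with another mouse's KO array was -0.541, 0.495 and 0.416, for mouse 2 nearly that of its own. Arrays have no read depth, and 3 per group limit the precision. The steps were tested on simulated data. The simulated WT and KO comparison held no differences between mice. It therefore does not show how the fit without the block behaves where mice differ. The 10 genes, the 15 other lists and the rule for named genes (up to 4 per list by smallest p, plus those needed beside one of the 10) were chosen with earlier results of these data known. Alternatives were the block, renormalization, centring, a floor, a filter on dim probe sets, averaged probe sets, array weights, another prior, and each array or mouse left out.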

Additional observations from a re-analysis of the deposited data

How the results depend on the processing

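No alternative brought any of the 10 genes past the adjusted threshold between KO and WT in limma, the smallest adjusted p being 0.15 (*Tlr8*, without mouse 1). The mouse as a replicate block, in which each mouse is its own control, gave 1 gene higher (7.46% of all probe sets) and 2 lower (5.99%) at an unadjusted p under 0.05 in place of 0 and 0. Array weights gave 1 higher, *Tlr9* (adjusted p = 0.18 from limma), and the share of all probe sets in that fit was not computed. Centring on the median put *Myd88* at -0.041, and array weights put *Tlr3* at -0.30. Leaving out arrays or mice moved *Tlr3* from -0.59 to 0.44, *Tlr8* from -1.60 to 0.69, *Tlr13* from -1.70 to 1.02, *Unc93b1* from -0.061 to 0.31, *Cnpy3* from -0.018 to 0.36 and *Myd88* from -0.17 to 0.23, while *Tlr7* (0.0077 to 0.64), *Tlr9* (0.23 to 0.94), *Slc15a4* (0.032 to 0.38) and *Pld4* (0.020 to 0.52) kept their sign. With whole mice left out, *Tlr8* (-0.48 to -0.35) and *Tlr13* (-0.39 to -0.29) kept their sign. Their sign turned only with single arrays left out, which leaves the mice unbalanced between WT and KO. With arrays or mice left out, 0 to 5 genes were higher and 0 to 1 lower at an unadjusted p under 0.05. The 5 came without the WT array of mouse 1 (8.04% of all probe sets) and the 1 without mouse 1 (7.79%). With a mouse left out, 1 to 7 were higher in every mouse left and 2 to 3 lower. The 7 and the 3 came without mouse 1, beside 37.5% and 28.9% of all probe sets. Shares for the other fits with arrays or mice left out were not computed. Of the genes that differed among mice, 3 became 5 with a trended and robust prior, which called 2470 probe sets in all against 1928. With a floor at the 20th percentile, which set 2617 probe sets to a constant on all arrays, 3 became 0. The floor left 8 probe sets past the limma F test in all (smallest adjusted p of the 10 genes 0.057). The KO minus WT differences of *Tlr3*, *Tlr8* and *Tlr13* were the same with the floor as without it (0.072, -0.42 and -0.34). The cause of the lost calls was not tested. In mouse 1 *Tlr3*, *Tlr8* and *Tlr13* were within the background, and their mean differences include that mouse.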
